A study of Mus musculus with 8 samples.

Results

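The cytochrome P450 genes of families 1 to 3 were examined in mouse liver RNA. Members were all genes whose symbol names a Cyp1, Cyp2 or Cyp3 enzyme, without pseudogenes and without Cyp2c70, and with a summed count of at least 15 over the 8 libraries. This gave 51 of the 35976 genes in the table, of which 46 fall in the subfamilies Cyp1a, Cyp2a, Cyp2b, Cyp2c, Cyp2d, Cyp2e, Cyp2f, Cyp2j and Cyp3a. The other 5 are Cyp1b1, Cyp2g1, Cyp2r1, Cyp2s1 and Cyp2u1. Just inside the limit lay Cyp2c66, with a summed count of 17.25, and just outside it lay Cyp3a16, with 13.6. OPA1_LKO livers (n = 3) came from mice in which Opa1 was deleted in hepatocytes. CTRL livers (n = 5) came from control mice, and the diet was high in fat in both groups. Opa1 is the dynamin-like protein needed to join inner mitochondrial membranes, and the study asked what blocking this in hepatocytes does to fatty liver and metabolism in obesity. The labels do not give the strain, sex or age of the mice, the driver of the deletion, or whether each library is a separate animal. Each p-value is thus set against the spread of these libraries, part of which may be technical.

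Enzymes of families 1 to 3 sit in the endoplasmic reticulum and use haem iron, with electrons passed on by the reductase Por, to put oxygen into drugs, toxins, steroids and fatty acids. The liver makes most of them, largely in hepatocytes around the central vein. Their genes are set by receptors for foreign compounds (Ahr, Nr1i2 and Nr1i3), by liver factors such as Hnf4a, and in rodents by the sex-dependent rhythm of growth hormone, so that some are male-biased and others female-biased in mice. Many arose by tandem duplication and lie in clusters of near-identical copies.

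Summed expected counts per library ran between 16627283 and 20471271 in OPA1_LKO and between 16076404 and 20265229 in CTRL. Opa1 itself was at 24.7, 34.4 and 34.0 CPM (counts relative to the scaled library size) in OPA1_LKO and at 39.9, 51.9, 44.0, 57.6 and 46.9 CPM in CTRL, so that the groups did not overlap in CPM. In TPM they did, with OPA1_LKO replicate 2 at 7.45 TPM and CTRL replicate 3 at 6.73 TPM. Its log2 fold change of -0.63 ± 0.17 (SE) lay outside the threshold of 0.05 (adjusted p = 0.0539 by edgeR, Benjamini-Hochberg). CTRL replicate 1 stood apart from the other libraries. It held 134 CPM of Apoe, an apolipoprotein of hepatocytes, against 20759 to 33180 CPM in the other 7 libraries. This library also held 8.13 CPM of Xist, the RNA of the inactive X chromosome, against at most 0.185 CPM in the others. The Y-linked gene Ddx3y was at 10.99 to 17.1 CPM in OPA1_LKO and at 7.91 to 26.9 CPM in CTRL. Results that rest on CTRL replicate 1 are given below with and without it.

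Of the 51 members, 45 passed the filter on low counts and were tested. Among these, 9 (20%) were called at an adjusted p under 0.05 by edgeR with Benjamini-Hochberg adjustment over all 14036 genes tested, against 6.03% of all genes. Higher in OPA1_LKO were 6 members, Cyp3a41a, Cyp3a44, Cyp3a57, Cyp2c69, Cyp2c40 and Cyp1b1, against 3.34% of all genes. Of these, Cyp3a41a, Cyp3a44, Cyp3a57 and Cyp2c69 passed the filter only through their OPA1_LKO counts. Lower in OPA1_LKO were 3 members, Cyp2c38, Cyp2c39 and Cyp2f2, against 2.69% of all genes. All 6 higher members averaged under 1 TPM (a level corrected for transcript length and library size) in CTRL. By contrast, 14 members averaged at least 100 TPM in both groups, and of these Cyp2f2 alone was called. The median log2 fold change of the 45 tested members was -0.25, beside -0.03 for all genes tested, with 15 members above 0 and 30 below. In CPM, all OPA1_LKO libraries lay above all CTRL libraries in 7 members, against 8% of all genes, and below them in 4 members, against 8.41%. Without OPA1_LKO replicate 1 or without OPA1_LKO replicate 3, 0 members were called lower by edgeR, beside 0.377% and 0.498% of all genes. At an unadjusted p under 0.05 these edgeR fits gave 5 and 8 members lower. The share of all genes at that threshold was not counted in these fits. Without CTRL replicate 1 there were 8 higher and 7 lower, beside 6.65% and 5.59% of all genes. Counts at other thresholds, given below for gene lists, stand beside 11.5% of all genes higher and 12.3% lower at an unadjusted p under 0.05 by edgeR, and 5.99% higher and 6.06% lower by DESeq2 with adjustment. The 6 members not tested were Cyp2c65, Cyp2c66, Cyp2d11, Cyp2d34, Cyp2j8 and Cyp3a41b.

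**Figure D1:**
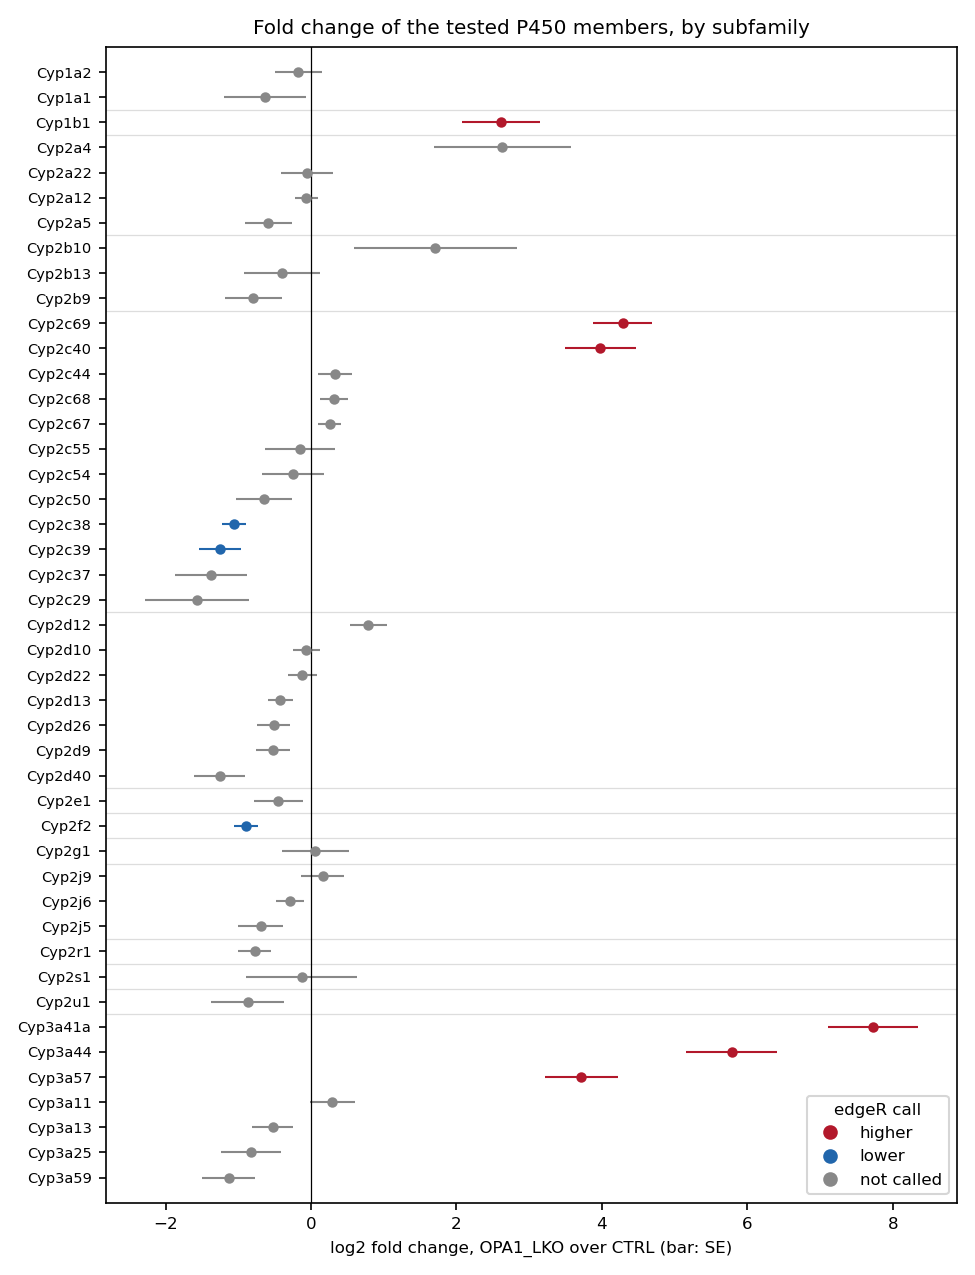
Log2 fold change (OPA1_LKO, n = 3, over CTRL, n = 5; x axis) of the 45 tested members, grouped by subfamily, with bars of 1 SE. Red points are members called higher, blue points are members called lower and grey points are not called. The called rises lie between 2.61 and 7.73, and the called falls between -1.25 and -0.89.

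Among the Cyp3a enzymes, which hydroxylate steroids and a large share of drugs, 3 of the 7 tested genes rose. Cyp3a41a, a female-biased steroid hydroxylase in mice, was at 17.9, 5.77 and 17.5 TPM in OPA1_LKO and at 0.18, 0.07, 0.03, 0 and 0 TPM in CTRL. Every OPA1_LKO library was above every CTRL library, and 2 CTRL libraries were listed at 0. On the log2 scale the gene rose by 7.73 ± 0.62 (SE, adjusted p = 0.000434 by edgeR, Benjamini-Hochberg). It rested on 1230 counts in OPA1_LKO and 8 counts in CTRL, a ratio per scaled depth of 219 (exact 95% interval 111 to 508, which covers counting error only). In bulk liver, a change in the number of cells that express a gene and a change in RNA per cell cannot be told apart, here and for all values that follow.

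Cyp3a44, also female-biased in mice, was at 1.16, 1.15 and 0.84 TPM in OPA1_LKO and at 0, 0, 0.03, 0.04 and 0 TPM in CTRL. The groups were again apart, at a level far below that of Cyp3a41a. Its log2 fold change of 5.78 ± 0.63 (SE, adjusted p = 0.00143 by edgeR, Benjamini-Hochberg) rested on 101 counts in OPA1_LKO and 2 counts in CTRL, a ratio of 71.9 (exact 95% counting interval 19.4 to 602). Cyp3a57 was at 1.38, 0.52 and 0.82 TPM in OPA1_LKO and at 0.09, 0.05, 0.11, 0.08 and 0.04 TPM in CTRL. All 3 OPA1_LKO libraries were above the 5 CTRL libraries, with OPA1_LKO replicate 2 the lowest of the 3, as it was for Cyp3a41a. The log2 fold change of Cyp3a57 was 3.72 ± 0.50 (SE, adjusted p = 0.00367 by edgeR, Benjamini-Hochberg), from 88 counts in OPA1_LKO and 9 in CTRL.

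The other Cyp3a members did not follow. Cyp3a11, the main Cyp3a enzyme of adult mouse liver and a classical target of Nr1i2, was at 622, 902 and 707 TPM in OPA1_LKO and at 594, 349, 341, 775 and 610 TPM in CTRL. The libraries overlapped, and its log2 fold change of 0.29 ± 0.31 (SE) was within the spread (adjusted p = 0.600 by edgeR, Benjamini-Hochberg). Cyp3a59 was at 5.60, 7.34 and 9.23 TPM in OPA1_LKO and at 8.60, 12.8, 13.1, 21.5 and 14.2 TPM in CTRL. Only OPA1_LKO replicate 3 and CTRL replicate 1 overlapped, and the log2 fold change of -1.13 ± 0.36 (SE) did not pass (adjusted p = 0.0980 by edgeR, Benjamini-Hochberg), although it was called lower without CTRL replicate 1 (-1.30, adjusted p = 0.0206). Cyp3a25 was at 93.1, 150.4 and 227 TPM in OPA1_LKO and at 147, 275, 209.6, 367 and 221 TPM in CTRL, with OPA1_LKO replicates 2 and 3 within the range of the controls. Cyp3a13 averaged 34.7 ± 6.74 TPM in OPA1_LKO and 43.4 ± 12.6 TPM in CTRL (SD, n = 3 and 5), and neither gene passed the test. The annotated coding transcript of Cyp3a25 took 22.3%, 41.1% and 6.07% of the gene's TPM in OPA1_LKO and 31.4%, 34.6%, 6.39%, 31.8% and 38.0% in CTRL, the rest being assigned to non-coding transcripts of the gene. OPA1_LKO replicate 3 and CTRL replicate 3 were the lowest of their groups in this share. Summed over the 8 Cyp3a members, the level was 958 ± 171 TPM in OPA1_LKO and 835 ± 242 TPM in CTRL, most of it Cyp3a11.

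The Cyp3a members that rose lie near each other, with the untested Cyp3a41b between them. On chromosome 5 (RefSeq, GRCm38.p6), Cyp3a57 (145345149 to 145390926), Cyp3a41b (145558664 to 145584732), Cyp3a41a (145694049 to 145720136) and Cyp3a44 (145773983 to 145805891) follow each other among the members, and Cyp3a11 is next, at 145854607 to 145879854. Cyp3a41b was not tested. It was listed at 0.99 TPM in OPA1_LKO replicate 2 and at 0 in OPA1_LKO replicates 1 and 3, and at 0.10 and 0.13 TPM in CTRL replicates 4 and 5 and 0 in the other 3 CTRL libraries. Of all 50-base words in the coding transcript of Cyp3a41a, 98.6% also occurred in a transcript of another gene, 93.7% in that of Cyp3a41b, so reads could not be assigned with certainty between these copies. Their sum was 17.9, 6.76 and 17.5 TPM in OPA1_LKO and 0.18, 0.07, 0.03, 0.10 and 0.13 TPM in CTRL, groups that did not overlap. The sum averaged 14.1 TPM in OPA1_LKO and 0.102 TPM in CTRL, and Cyp3a41a alone averaged 13.7 TPM in OPA1_LKO and 0.056 TPM in CTRL. The shared part was 26.5% for Cyp3a44 and 8.88% for Cyp3a57.

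In the Cyp2c subfamily, whose enzymes act on arachidonic acid, retinoids and drugs, 2 of the 12 tested genes rose and 2 fell. Cyp2c40, an arachidonic acid hydroxylase that is female-biased in mouse liver, was at 15.4, 6.66 and 9.92 TPM in OPA1_LKO and at 0.17, 1.32, 0.44, 0.34 and 0.74 TPM in CTRL. Cyp2c69, its closest copy, was at 4.70, 3.62 and 3.38 TPM in OPA1_LKO and at 0.19, 0.40, 0.15, 0.09 and 0.08 TPM in CTRL. For both genes the groups did not overlap, OPA1_LKO replicate 1 was the highest library, and CTRL replicate 2 was the highest of the controls. The log2 fold change was 3.98 ± 0.48 for Cyp2c40 and 4.29 ± 0.41 for Cyp2c69 (SE, adjusted p = 0.00241 and 0.000766 by edgeR, Benjamini-Hochberg). Cyp2c69 rested on 335 counts in OPA1_LKO and 24 in CTRL.

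Cyp2c40 (chromosome 19, 39767073 to 39812814) and Cyp2c69 (39842660 to 39886769) are neighbours, with the more abundant Cyp2c67 and Cyp2c68 on one side and Cyp2c37 on the other. Cyp2c67 was at 148, 185 and 119.7 TPM in OPA1_LKO and at 130.3, 111, 85.3, 117 and 116 TPM in CTRL, overlapping in TPM through CTRL replicate 1. In CPM the overlap was through CTRL replicate 4, at 208 CPM, against 182 CPM in OPA1_LKO replicate 3. Cyp2c68 averaged 146 ± 18.5 TPM in OPA1_LKO and 103 ± 17.7 TPM in CTRL (SD, n = 3 and 5). Their log2 fold changes of 0.26 ± 0.15 and 0.32 ± 0.20 (SE) did not pass (adjusted p = 0.348 and 0.361 by edgeR, Benjamini-Hochberg). Of the 50-base words of Cyp2c40, 72.1% occurred in another gene's transcript, and of those of Cyp2c69, 54.8%. The sum of Cyp2c40 and Cyp2c69 was 20.1, 10.3 and 13.3 TPM in OPA1_LKO and 0.36, 1.72, 0.59, 0.43 and 0.82 TPM in CTRL. The groups had to be apart in this sum, as they were in each gene. With Cyp2c67 and Cyp2c68 added, the sum averaged 311 ± 44.5 TPM in OPA1_LKO and 215 ± 25.8 TPM in CTRL (SD, n = 3 and 5). Part of the reads of Cyp2c67 and Cyp2c68, whose summed level was 297 ± 44.2 TPM in OPA1_LKO and 215 ± 25.6 TPM in CTRL, could equally be assigned to Cyp2c40. That share was not tested.

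**Figure D2:**
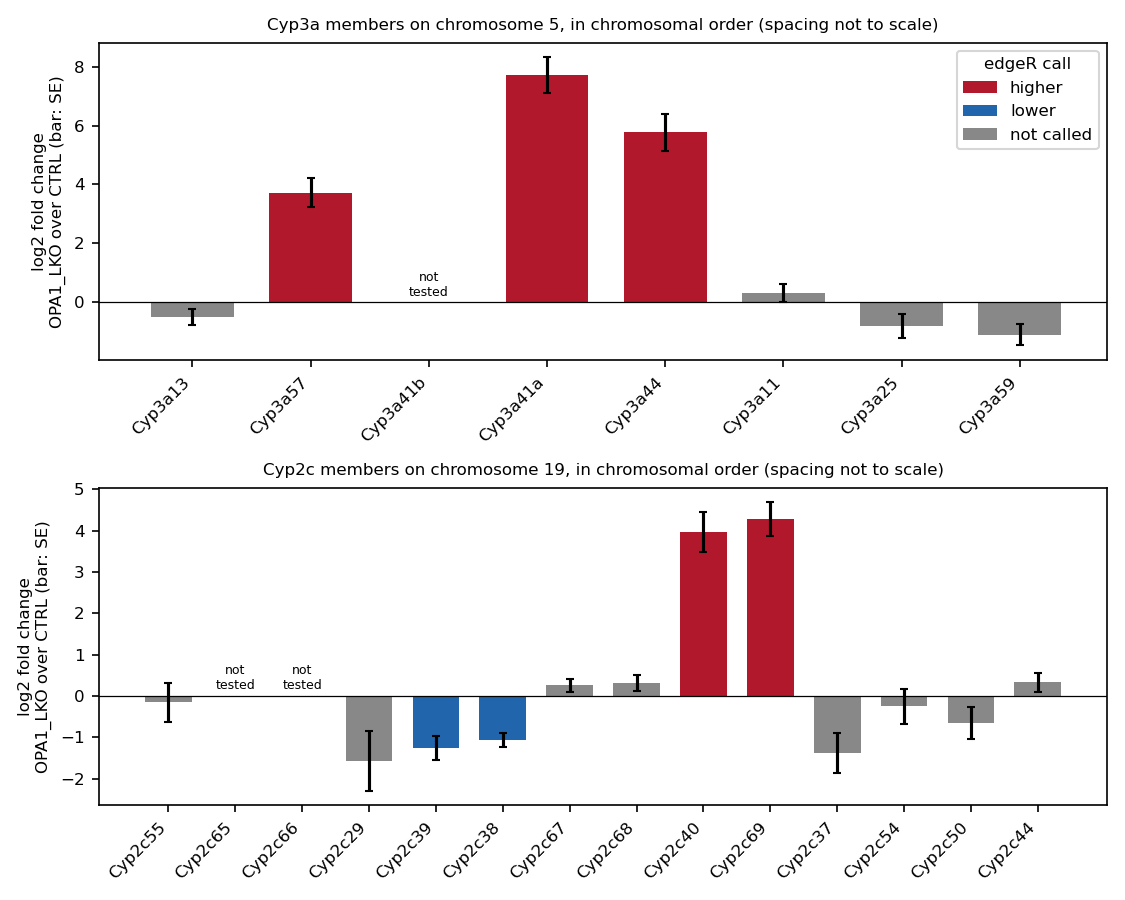
Log2 fold change (OPA1_LKO, n = 3, over CTRL, n = 5; y axis, bars of 1 SE) of the Cyp3a members on chromosome 5 and the Cyp2c members on chromosome 19, in chromosomal order, with the spacing not to scale. The called rises sit together, Cyp3a57 to Cyp3a44 around the untested Cyp3a41b in the upper panel and Cyp2c40 beside Cyp2c69 in the lower. In the lower panel, Cyp2c39 and Cyp2c38 are the called falls.

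The promoters of the clustered genes are shown because called and uncalled copies can be read beside each other. Each is 130 bases from the RefSeq promoter table (GRCm38.p6), on the minus strand and written 5′ to 3′. The Cyp2c stretches begin at a word of 18 bases that these 4 copies share, and the Cyp3a stretches are the 130 bases before the start that the table gives. Capitals mark CAAAGTCCA, a motif bound by Hnf4a, the factor that holds up much of the hepatocyte programme. The stretches lie at chr19:39812819-39812948 (Cyp2c40), chr19:39886804-39886933 (Cyp2c69), chr19:39649127-39649256 (Cyp2c67), chr19:39741139-39741268 (Cyp2c68), chr5:145720137-145720266 (Cyp3a41a), chr5:145805875-145806004 (Cyp3a44) and chr5:145879855-145879984 (Cyp3a11).
Cyp2c40: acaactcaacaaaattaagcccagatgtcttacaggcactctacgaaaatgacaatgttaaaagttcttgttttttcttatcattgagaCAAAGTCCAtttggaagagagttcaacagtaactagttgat
Cyp2c69: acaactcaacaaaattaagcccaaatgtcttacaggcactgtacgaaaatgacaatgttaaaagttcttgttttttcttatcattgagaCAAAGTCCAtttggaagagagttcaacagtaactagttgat
Cyp2c67: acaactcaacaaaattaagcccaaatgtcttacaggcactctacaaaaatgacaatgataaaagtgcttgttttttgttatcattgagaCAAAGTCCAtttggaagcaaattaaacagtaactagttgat
Cyp2c68: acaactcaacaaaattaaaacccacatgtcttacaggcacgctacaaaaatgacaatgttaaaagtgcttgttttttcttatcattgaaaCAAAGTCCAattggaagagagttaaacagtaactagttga
Cyp3a41a: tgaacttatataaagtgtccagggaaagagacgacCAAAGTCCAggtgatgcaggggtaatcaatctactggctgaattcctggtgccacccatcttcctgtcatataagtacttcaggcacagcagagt
Cyp3a44: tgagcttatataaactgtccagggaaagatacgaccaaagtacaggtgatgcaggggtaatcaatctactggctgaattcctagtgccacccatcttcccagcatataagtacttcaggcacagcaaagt
Cyp3a11: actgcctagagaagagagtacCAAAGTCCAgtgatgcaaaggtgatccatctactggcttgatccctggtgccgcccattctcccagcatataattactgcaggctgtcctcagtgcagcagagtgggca

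The Cyp2c40 stretch matched that of Cyp2c69 at 98.5% of aligned positions, that of Cyp2c67 at 93.1% and that of Cyp2c68 at 92.4%, although the first pair rose and the second pair did not pass the test. Cyp3a41a matched Cyp3a44 at 93.1% and Cyp3a11 at 64.1%. RefSeq promoters (250 bases before to 50 after the start) were given for 43 of the 51 members. CAAAGTCCA was searched on both strands and found in the promoters of 8 members, Cyp2c40, Cyp2c65, Cyp2c67, Cyp2c68, Cyp2c69, Cyp3a11, Cyp3a41a and Cyp3a41b, against 0.475% of all 32851 promoters in the table. The 8 thus include called, uncalled and untested members, and the Cyp3a44 promoter did not hold these letters. TTCNNNGAA, the core bound by the growth hormone-activated Stat5 factors, was found in 0 member promoters, against 8.3% of all promoters. GCGTG, the core of the Ahr response element, was found in those of Cyp1a1, Cyp1b1, Cyp2b10, Cyp2c68, Cyp2j9 and Cyp2r1, against 32.4% of all promoters. Cyp2c68 holds both CAAAGTCCA and GCGTG, which do not overlap there. A match describes the letters in this window and is not a measured binding site.

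The called falls within Cyp2c were Cyp2c38 and Cyp2c39, both known to act on arachidonic acid, and Cyp2c39 on retinoic acid as well. Cyp2c38 was at 23.3, 35.3 and 19.95 TPM in OPA1_LKO and at 52.0, 58.5, 41.6, 39.7 and 50.7 TPM in CTRL. Cyp2c39 was at 1.10, 1.28 and 0.93 TPM in OPA1_LKO and at 2.51, 2.23, 1.48, 3.11 and 2.31 TPM in CTRL. In both, each OPA1_LKO library was below each CTRL library, and OPA1_LKO replicate 2 was the highest of the 3. On the log2 scale Cyp2c38 fell by 1.06 ± 0.17 and Cyp2c39 by 1.25 ± 0.29 (SE, adjusted p = 0.00869 and 0.0346 by edgeR, Benjamini-Hochberg). On chromosome 19, Cyp2c38 (39389556 to 39463103, minus strand) lies within the annotated span of Cyp2c39 (39347346 to 39569568, plus strand), and the sources used here do not say whether counting used the strand, so reads of overlapping parts cannot be told apart. The fall of Cyp2c38 missed the threshold without OPA1_LKO replicate 1 (adjusted p = 0.0594) or OPA1_LKO replicate 3 (0.0580) in the same edgeR test. That of Cyp2c39 held in 2 of the 8 fits that left out 1 library each, and the edgeR adjusted p was 0.153, 0.0661 and 0.136 without OPA1_LKO replicates 1, 2 and 3 and 0.0616, 0.0540 and 0.0747 without CTRL replicates 2, 4 and 5.

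The remaining Cyp2c members varied widely between libraries. Cyp2c29, a male-biased and phenobarbital-inducible enzyme in mice, was at 35.8, 135 and 24.99 TPM in OPA1_LKO and at 41.9, 252, 66.0, 240 and 213 TPM in CTRL. OPA1_LKO replicate 2 lay above CTRL replicates 1 and 3, and the log2 fold change of -1.57 ± 0.72 (SE) did not pass (adjusted p = 0.218 by edgeR, Benjamini-Hochberg). Cyp2c37, an arachidonic acid hydroxylase, was at 31.6, 93.0 and 49.0 TPM in OPA1_LKO and at 63.7, 161, 81.2, 218 and 118 TPM in CTRL, again with OPA1_LKO replicate 2 above CTRL replicates 1 and 3 (log2 fold change -1.38 ± 0.49 SE, adjusted p = 0.126 by edgeR, Benjamini-Hochberg). Without CTRL replicate 1, Cyp2c37 was called lower (-1.58, adjusted p = 0.0338 in that edgeR fit). Cyp2c50 was at 121, 235 and 145 TPM in OPA1_LKO and at 169, 342, 110.3, 317 and 195 TPM in CTRL. Its groups overlapped, as did those of Cyp2c54, which averaged 81.4 ± 24.7 TPM in OPA1_LKO and 84.5 ± 42.0 TPM in CTRL. Cyp2c44, an epoxygenase of arachidonic acid, averaged 110 ± 28.6 TPM in OPA1_LKO and 78.2 ± 25.2 TPM in CTRL, and Cyp2c55 was at 0.33 to 1.22 TPM in OPA1_LKO and 0.40 to 1.03 TPM in CTRL. None of these 6 genes was called. The summed Cyp2c level was 821 ± 230 TPM in OPA1_LKO and 948 ± 325 TPM in CTRL.

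Cyp2f2, which activates naphthalene in lung and marks periportal hepatocytes in liver, was the only called member at over 100 TPM. It was at 135, 179 and 129 TPM in OPA1_LKO and at 271, 235, 197, 223 and 294 TPM in CTRL. The groups did not overlap, with OPA1_LKO replicate 2 and CTRL replicate 3 nearest each other. Its log2 fold change was -0.89 ± 0.16 (SE, adjusted p = 0.0144 by edgeR, Benjamini-Hochberg), and none of its 50-base words occurred in another gene. The call did not hold without OPA1_LKO replicate 1 (adjusted p = 0.0919) or OPA1_LKO replicate 3 (adjusted p = 0.0777) in the same edgeR test. Of the 12 genes in the periportal list, to which Cyp2f2 belongs, it was the 1 called lower, while Pck1, the entry enzyme of gluconeogenesis, was called higher, at 2226 ± 489 CPM in OPA1_LKO and 1075 ± 215 CPM in CTRL (SD, n = 3 and 5; log2 fold change 1.05, adjusted p = 0.0220 in that edgeR fit). The list had a median log2 fold change of 0.50, with 5 higher and 1 lower at an unadjusted p under 0.05 and 4 higher and 1 lower by DESeq2, so that Cyp2f2 was the 1 gene lower in each count.

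**Figure D3:**
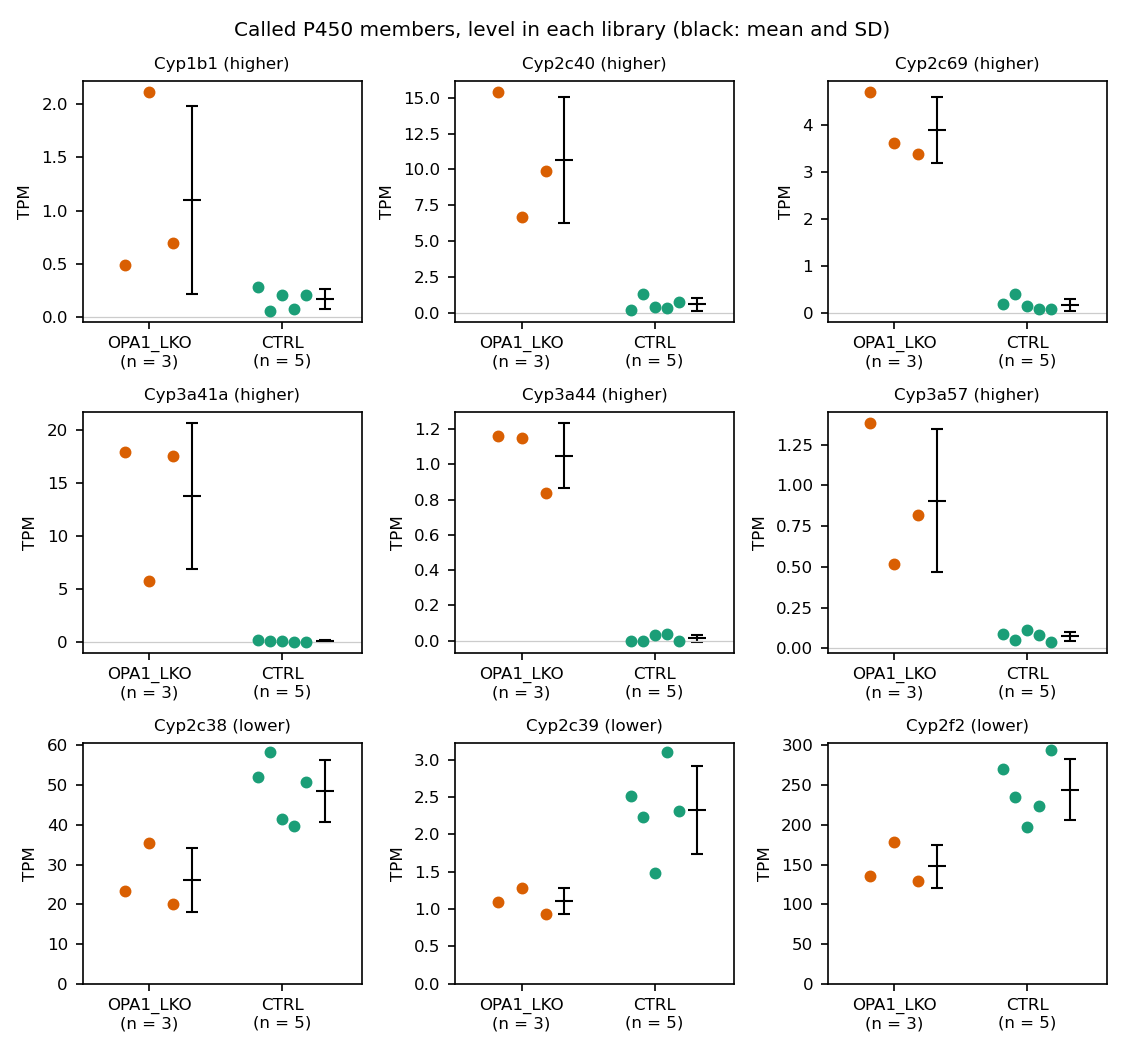
TPM (y axis, linear) of the 9 called members in each library, OPA1_LKO (n = 3, orange) left of CTRL (n = 5, green), with the mean and SD in black. In each panel the groups do not overlap, and the CTRL points of Cyp3a41a lie between 0 and 0.18 TPM, against 5.77 to 17.9 TPM in OPA1_LKO.

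Cyp1b1, which oxidises oestradiol and polycyclic hydrocarbons and is known mainly outside hepatocytes, was at 0.49, 2.11 and 0.70 TPM in OPA1_LKO and at 0.28, 0.06, 0.21, 0.08 and 0.21 TPM in CTRL. OPA1_LKO replicate 2 stood well above the other libraries, and the groups did not overlap. Its log2 fold change was 2.61 ± 0.54 (SE, adjusted p = 0.0221 by edgeR, Benjamini-Hochberg). The call held in 4 of the 8 fits that left out 1 library. Without OPA1_LKO replicate 2 the log2 fold change was 1.81 (edgeR adjusted p = 0.0858), and the edgeR adjusted p was 0.0581 without OPA1_LKO replicate 3, 0.0524 without CTRL replicate 4 and 0.0621 without CTRL replicate 5. Stellate cell markers, of which 0 of 8 were called by edgeR (5 at an unadjusted p under 0.05, 1 by DESeq2), summed to 287 to 565 CPM in OPA1_LKO and 205 to 283 CPM in CTRL with none of the genes at 0. Their part in the Cyp1b1 result was not tested.

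The Cyp1a pair, the classical targets of Ahr, was not called. Cyp1a2, which oxidises caffeine and aromatic amines, was at 119, 230 and 93.6 TPM in OPA1_LKO and at 175, 161, 69.2, 190 and 138 TPM in CTRL. The libraries overlapped throughout, with means of 147 ± 72.2 TPM in OPA1_LKO and 147 ± 47.4 TPM in CTRL (SD, n = 3 and 5). Cyp1a1, which oxidises polycyclic hydrocarbons, was at 0.11, 0.33 and 0.17 TPM in OPA1_LKO and at 0.41, 0.30, 0.28, 0.37 and 0.07 TPM in CTRL, again overlapping. Outside the P450 genes, 0 of 4 tested Ahr targets were called by edgeR (0 at an unadjusted p under 0.05, and 0 called by DESeq2), among them Nqo1, a quinone reductase, at 17.0 ± 4.16 CPM in OPA1_LKO and 16.0 ± 3.08 CPM in CTRL.

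The most abundant member of both groups was not called. Cyp2e1, which oxidises ethanol and acetaminophen, was at 4400.0, 6922 and 3334 TPM in OPA1_LKO and at 4009, 7203, 3565, 7134 and 6989 TPM in CTRL. It took between 42.1% and 56.2% of the summed member level in the 8 libraries, and its log2 fold change was -0.45 ± 0.33 (SE, adjusted p = 0.454 by edgeR, Benjamini-Hochberg). OPA1_LKO replicates 1 and 3 and CTRL replicates 1 and 3 held the lowest levels, and the groups overlapped.

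Cyp2d enzymes act on basic drugs, and Cyp2d9, a male-biased testosterone hydroxylase in mice, was at 409, 708 and 411 TPM in OPA1_LKO and at 631, 694, 496, 773 and 616 TPM in CTRL. OPA1_LKO replicates 1 and 3 were below all CTRL libraries and OPA1_LKO replicate 2 was among them (log2 fold change -0.52 ± 0.24 SE, adjusted p = 0.210 by edgeR, Benjamini-Hochberg). Cyp2d26 was at 420, 602 and 373 TPM in OPA1_LKO and at 500, 631, 450, 620 and 709 TPM in CTRL, the same arrangement with a value of -0.51 ± 0.22 (adjusted p = 0.194 in that edgeR fit). Cyp2d40 showed it most, at 20.5, 54.5 and 19.6 TPM in OPA1_LKO and at 54.7, 79.0, 41.4, 78.5 and 74.5 TPM in CTRL. Its log2 fold change of -1.26 ± 0.35 (SE) did not pass (adjusted p = 0.0664 by edgeR, Benjamini-Hochberg), and did so without OPA1_LKO replicate 2 (-1.84, adjusted p = 0.0157) or without CTRL replicate 1 (-1.37, adjusted p = 0.0305).

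Of the other Cyp2d members, Cyp2d10 averaged 497 ± 102 TPM in OPA1_LKO and 456 ± 40.2 TPM in CTRL, Cyp2d22 averaged 85.6 ± 13.6 and 81.9 ± 10.9 TPM, and Cyp2d13 averaged 63.0 ± 8.38 and 76.8 ± 16.5 TPM in OPA1_LKO and CTRL. Cyp2d12 was at 5.46, 4.34 and 3.43 TPM in OPA1_LKO and at 4.02, 1.69, 2.06, 1.64 and 2.26 TPM in CTRL, with CTRL replicate 1 apart from the other controls. It was the opposite of Cyp2d40 in sign, at a log2 fold change of 0.79 ± 0.26 (SE, adjusted p = 0.102 by edgeR, Benjamini-Hochberg), and it was called higher without CTRL replicate 1 (0.96, adjusted p = 0.0298). Summed over 9 members, the Cyp2d level was 1656 ± 426 TPM in OPA1_LKO and 1907 ± 255 TPM in CTRL.

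In the Cyp2a subfamily the 2 near-identical genes Cyp2a4 and Cyp2a5 went apart in sign. Cyp2a4, a steroid hydroxylase that is female-biased in mice, was at 108, 48.8 and 22.6 TPM in OPA1_LKO and at 38.9, 2.21, 3.45, 0.72 and 3.20 TPM in CTRL. All OPA1_LKO libraries lay above CTRL replicates 2 to 5, while CTRL replicate 1 lay among them. The log2 fold change of 2.63 ± 0.94 (SE) did not pass with all libraries (adjusted p = 0.128 by edgeR, Benjamini-Hochberg), and without CTRL replicate 1 it was 4.35, with an adjusted p of 0.00175. Cyp2a5, the coumarin hydroxylase, was at 370, 911 and 381 TPM in OPA1_LKO and at 943, 594, 492, 926 and 692 TPM in CTRL. OPA1_LKO replicates 1 and 3 were below all CTRL libraries and OPA1_LKO replicate 2 was not (log2 fold change -0.59 ± 0.32 SE, adjusted p = 0.303 by edgeR, Benjamini-Hochberg).

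Cyp2a4 took 22.7%, 5.09% and 5.60% of the summed level of this pair in OPA1_LKO and 3.96%, 0.371%, 0.697%, 0.0777% and 0.461% in CTRL. In this share, unlike in the level of Cyp2a4, the 3 OPA1_LKO libraries were above the 5 CTRL libraries. Shared 50-base words made up 38.0% of the Cyp2a4 transcript and 40.8% of that of Cyp2a5, so the split between them is an estimate. The pair summed to 614 ± 302 TPM in OPA1_LKO and 739 ± 210 TPM in CTRL. Cyp2a12 was at 387, 388 and 344.5 TPM in OPA1_LKO and at 528, 333, 263, 332 and 313 TPM in CTRL, where CTRL replicate 1 was the highest of all libraries. Cyp2a22 averaged 39.95 ± 10.3 TPM in OPA1_LKO and 39.0 ± 24.7 TPM in CTRL, and neither gene was called.

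Cyp2b enzymes are the classical products of phenobarbital induction through Nr1i3, and none of the 3 was called. Cyp2b10, the most inducible of them, was at 6.75, 1.14 and 0.95 TPM in OPA1_LKO and at 0.04, 0.36, 2.70, 0.28 and 0.03 TPM in CTRL. OPA1_LKO replicate 1 and CTRL replicate 3 stood out of their groups, and the log2 fold change was 1.71 ± 1.13 (SE, adjusted p = 0.392 by edgeR, Benjamini-Hochberg). Without CTRL replicate 3 it was 3.86, with an adjusted p of 0.0410. Without OPA1_LKO replicate 1 it was 0.28. Cyp2b9, female-biased in mice, was at 43.7, 42.3 and 37.4 TPM in OPA1_LKO and at 33.8, 48.5, 42.2, 72.7 and 113 TPM in CTRL, and Cyp2b13, also female-biased, was at 3.02, 6.77 and 2.93 TPM in OPA1_LKO and at 2.90, 3.85, 1.89, 5.25 and 10.5 TPM in CTRL. Both overlapped between the groups.

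The Cyp2j enzymes make epoxides of arachidonic acid. Cyp2j5, the main one in mouse liver and kidney, was at 100, 133 and 79.8 TPM in OPA1_LKO and at 104, 154, 92.9, 199 and 164 TPM in CTRL, overlapping through CTRL replicates 1 and 3 (log2 fold change -0.69 ± 0.31 SE, adjusted p = 0.202 by edgeR, Benjamini-Hochberg). Cyp2j6 was at 22.2, 24.7 and 20.8 TPM in OPA1_LKO and at 27.0, 18.6, 21.7, 28.5 and 26.6 TPM in CTRL, and Cyp2j9 averaged 12.2 ± 4.16 TPM in OPA1_LKO and 9.67 ± 1.75 TPM in CTRL. Neither was called. Cyp2r1, which hydroxylates vitamin D in liver, was at 4.83, 5.75 and 4.91 TPM in OPA1_LKO and at 8.77, 9.72, 6.86, 8.23 and 5.46 TPM in CTRL. In TPM it overlapped with CTRL replicate 5, and in CPM it did not. Its log2 fold change of -0.77 ± 0.23 (SE) did not pass (adjusted p = 0.0774 by edgeR, Benjamini-Hochberg), and without CTRL replicate 1 it did (-0.84, adjusted p = 0.0413). Cyp2u1, a fatty acid hydroxylase, was at 1.43, 1.68 and 0.63 TPM in OPA1_LKO and at 0.95, 3.66, 0.94, 2.10 and 2.86 TPM in CTRL. Cyp2g1, known from the olfactory lining, was at 0.55, 0.80 and 0.57 TPM in OPA1_LKO and at 0.59, 0.95, 0.54, 0.50 and 0.17 TPM in CTRL. Cyp2s1, known mainly from tissues other than liver, was at 0.09, 0.49 and 0.32 TPM in OPA1_LKO and at 0.14, 0.15, 0.65, 0.07 and 0.36 TPM in CTRL. All 3 overlapped between the groups and were not called.

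Of the members that were not tested, Cyp2c65 had 4 counts in OPA1_LKO and 184 in CTRL, 179 of them in CTRL replicate 3. This enzyme, known from mouse intestine, was listed at 0, 0.03 and 0.10 TPM in OPA1_LKO and at 0, 0, 4.85, 0.13 and 0.03 TPM in CTRL, and Cyp2c66 was listed at 0 in all libraries except CTRL replicate 3, at 0.57 TPM. The same CTRL library held 22.3 CPM of Krt19, 16.8 CPM of Epcam, 6.32 CPM of Cldn7 and 3.02 CPM of Cftr, genes of duct and other simple epithelia, against at most 1.03, 0.892, 0.137 and 0.115 CPM in the other 4 CTRL libraries. These 4 genes reached at most 5.67, 10.5, 2.20 and 0.7103 CPM in OPA1_LKO. Their part in the Cyp2c65 and Cyp2c66 values was not tested. Cyp2d11, Cyp2d34 and Cyp2j8 were between 0.04 and 0.47 TPM in OPA1_LKO and between 0 and 0.54 TPM in CTRL.

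Many members shared 1 order of the libraries. OPA1_LKO replicate 2 was the highest OPA1_LKO library in 28 of the 45 tested members (62.2%), beside 37.6% of all genes tested, in CPM. CTRL replicates 1 and 3 were both the lowest of the controls in 15 members (33.3%), beside 21.8% of all genes. Both held in 14 members (31.1%), beside 12.8% of all genes, and 5 of the 14 were Cyp2c and 4 were Cyp2d genes. In Cyp2e1, Cyp2c29, Cyp2c37, Cyp2d9, Cyp2d26 and Cyp2j5 this placed OPA1_LKO replicate 2 above at least 1 control. The summed member level was 8693, 13278 and 7545 TPM in OPA1_LKO and 9516, 12811, 7477, 13784 and 12657 TPM in CTRL. Transcripts of the mitochondrial genome took 15.4%, 12.0% and 21.7% of counts in OPA1_LKO and 13.9%, 14.9%, 26.4%, 17.0% and 18.8% in CTRL. In each group the library with the largest mitochondrial share had the lowest member sum, and the part of this share in the pattern was not tested.

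**Figure D4:**
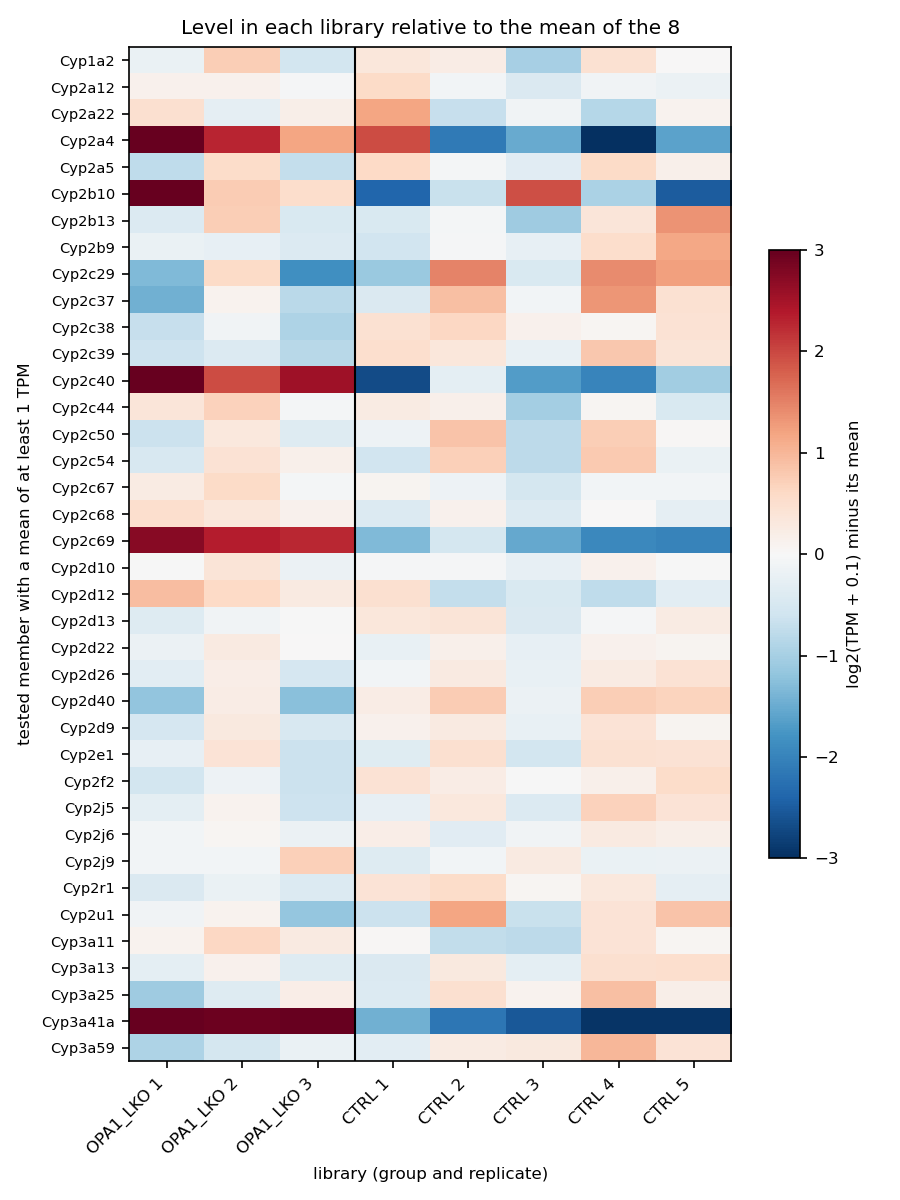
Level of each tested member with a mean of at least 1 TPM in each library, as log2(TPM + 0.1) minus the member's mean over the 8 libraries (red above, blue below), with the 3 OPA1_LKO libraries left of the line and the 5 CTRL libraries right of it. Cyp3a41a, Cyp2c40 and Cyp2c69 are red in all OPA1_LKO columns and blue in all CTRL columns, and most other rows are redder in OPA1_LKO replicate 2 than in OPA1_LKO replicates 1 and 3.

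Of 9 genes for partner proteins of P450 enzymes, 1 rose and 1 fell by edgeR. At an unadjusted p under 0.05 the same test gave 2 higher and 6 lower, and DESeq2 called 2 higher and 4 lower, with a median log2 fold change of -0.46 over the 9. Cyb5r1, a reductase of the cytochrome b5 reductase family, was at 37.4, 15.3 and 31.7 CPM in OPA1_LKO and at 10.1, 5.22, 5.14, 4.05 and 4.70 CPM in CTRL (log2 fold change 2.26 ± 0.33 SE, adjusted p = 0.00555 by edgeR, Benjamini-Hochberg). Cyb5r3, the main reductase of cytochrome b5, was at 277, 289 and 269 CPM in OPA1_LKO and at 419, 431, 590.0, 385 and 502 CPM in CTRL (log2 fold change -0.74 ± 0.17 SE, adjusted p = 0.0337 in that edgeR fit). In neither gene did the groups overlap in CPM. In TPM those of Cyb5r3 did, with OPA1_LKO replicate 2 at 186 TPM and CTRL replicate 4 at 180 TPM. Por, the reductase on which all these enzymes depend, was at 445, 599 and 500.1 CPM in OPA1_LKO and at 169, 312, 315, 430 and 317 CPM in CTRL, also apart, but its log2 fold change of 0.74 ± 0.25 (SE) did not pass (adjusted p = 0.115 by edgeR, Benjamini-Hochberg). Cyb5a, Cyb5b, Pgrmc1, Pgrmc2, Fdx1 and Fdxr were not called by edgeR, with log2 fold changes from -0.95 for Cyb5b to 0.45 for Fdxr. Of 12 genes of haem synthesis and breakdown, Alad, which condenses aminolevulinate, alone was called by edgeR (0 higher and 3 lower at an unadjusted p under 0.05, 0 and 2 by DESeq2), at 155 ± 7.45 CPM in OPA1_LKO and 229 ± 24.2 CPM in CTRL (log2 fold change -0.56 ± 0.14 SE, adjusted p = 0.0435 by edgeR, Benjamini-Hochberg), while Alas1, the rate-limiting enzyme, averaged 609 ± 120 CPM in OPA1_LKO and 725 ± 280 CPM in CTRL.

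Of 21 tested receptors and factors that control P450 genes, 2 fell and 0 rose by edgeR (6 and 0 at an unadjusted p under 0.05, 5 and 0 by DESeq2). Cebpa, a hepatocyte factor, averaged 194 ± 23.5 CPM in OPA1_LKO and 341 ± 61.8 CPM in CTRL (log2 fold change -0.82 ± 0.18 SE, adjusted p = 0.0286 by edgeR, Benjamini-Hochberg). Foxa2, which opens liver chromatin, averaged 14.7 ± 2.72 CPM in OPA1_LKO and 29.2 ± 7.02 CPM in CTRL (log2 fold change -0.99 ± 0.21 SE, adjusted p = 0.0233 in that edgeR fit). In both genes the groups did not overlap in CPM. In TPM those of Foxa2 did, with OPA1_LKO replicate 1 at 10.9 TPM and CTRL replicate 3 at 10.5 TPM. Ahr had a log2 fold change of 0.19 ± 0.28, Nr1i2 of 0.26 ± 0.17, Nr1i3 of -0.65 ± 0.26, Rxra of -0.24 ± 0.19 and Hnf4a of 0.03 ± 0.14 (SE), none of them called. Of 17 targets of Nr1i2 and Nr1i3 outside the P450 genes, Sult1e1, the oestrogen sulfotransferase, rose to 5.59 ± 2.07 CPM in OPA1_LKO, against 0.443 ± 0.236 CPM in CTRL (log2 fold change 3.64 ± 0.42 SE, adjusted p = 0.00190 by edgeR, Benjamini-Hochberg). Aldh1a7 fell to 139 ± 5.39 CPM in OPA1_LKO, against 212 ± 21.9 CPM in CTRL (log2 fold change -0.61 ± 0.14 SE, adjusted p = 0.0296 in that edgeR fit), and the other 15 were not called by edgeR. Over the 17, 4 were higher and 4 lower at an unadjusted p under 0.05, and DESeq2 called 3 higher and 2 lower.

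Among P450 genes known as female-biased in mouse liver, 10 of the 12 listed were tested, of which Cyp2c40, Cyp2c69, Cyp3a41a and Cyp3a44 rose and Cyp2c39 fell. Cyp3a41a, Cyp3a44 and Cyp2c69 passed the count filter only through OPA1_LKO, with 8, 2 and 24 counts in all CTRL libraries together. The same holds for Cyp3a57, which is outside this list, with 9 counts in CTRL. Cyp2a4, Cyp2b9, Cyp2b10, Cyp2b13 and Cyp2g1 were not called, with log2 fold changes from -0.79 for Cyp2b9 to 2.63 for Cyp2a4. The 3 male-biased P450 genes Cyp2d9, Cyp2u1 and Cyp2c29 had log2 fold changes of -0.52, -0.87 and -1.57, and 0 of them were called by edgeR (1 at an unadjusted p under 0.05, 0 by DESeq2). Outside the P450 genes, 2 of 9 tested female-biased genes rose by edgeR, Sult2a1 among them (4 higher and 2 lower at an unadjusted p under 0.05, 3 and 0 by DESeq2). Sult2a1, a sulfotransferase of steroids and bile acids, had 168 counts in OPA1_LKO and 1 in CTRL, a ratio of 239 (exact 95% counting interval 42.4 to 9503, adjusted p = 0.00457 by edgeR, Benjamini-Hochberg). This gene also passed the count filter only through OPA1_LKO.

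Of 11 tested male-biased genes outside the P450 genes, 0 were called by edgeR (5 at an unadjusted p under 0.05 and 3 called by DESeq2, in both directions), and Mup7, a urinary protein, came nearest to the threshold, at 85.3, 164 and 125 CPM in OPA1_LKO and at 332, 4873, 285, 4327 and 625 CPM in CTRL (log2 fold change -4.07 ± 1.09 SE, adjusted p = 0.0564 by edgeR, Benjamini-Hochberg). The lowest control still exceeded every OPA1_LKO library in this gene. Of 13 genes of the growth hormone route, 0 were called by edgeR (1 higher and 6 lower at an unadjusted p under 0.05, 0 and 3 by DESeq2), with Stat5a at 10.3 ± 1.78 CPM in OPA1_LKO and 15.7 ± 2.04 CPM in CTRL the nearest (adjusted p = 0.0577 by edgeR, Benjamini-Hochberg). The Xist level of CTRL replicate 1 and the Ddx3y level of all 8 libraries, given above, stand beside these lists, and their part in them was not tested. Without CTRL replicate 1 the same 4 female-biased P450 genes were called higher, with Cyp2a4 added.

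Markers of zones and cell types were read beside the P450 genes. Of 13 pericentral genes outside P450, Rnf43, a brake on Wnt signalling, Aldh3a2, a fatty aldehyde dehydrogenase, and Tbx3, a Wnt target in hepatocytes, fell by 0.80, 0.69 and 0.89 on the log2 scale (adjusted p = 0.0196, 0.0481 and 0.0471 by edgeR, Benjamini-Hochberg), and the other 10 were not called by edgeR (0 higher and 6 lower of the 13 at an unadjusted p under 0.05, 0 and 3 by DESeq2). Among 9 hepatocyte markers Tat, a tyrosine-degrading enzyme, rose by 1.61 on the log2 scale (adjusted p = 0.00950 in that edgeR fit) and 8 were not called, with Alb at 59488 ± 8390 CPM in OPA1_LKO and 54493 ± 14597 CPM in CTRL, so that the labelled tissue carried its defining marker in both groups. Of 8 cholangiocyte markers, Spp1, Krt7 and Sox9 rose by 2.76, 2.04 and 1.72 on the log2 scale (adjusted p between 0.000620 and 0.0192 in that edgeR fit) and 5 were not called, Krt19, Epcam, Cldn7 and Cftr among them. The summed level of the 8 was 165 to 220 CPM in OPA1_LKO and 35.0 to 89.5 CPM in CTRL, mostly Spp1. None of 8 macrophage markers and none of 8 endothelial markers was called by edgeR (1 and 0 at an unadjusted p under 0.05, 1 and 0 by DESeq2), at summed levels of 152 to 263 and 126 to 238 CPM in OPA1_LKO and of 149 to 680 and 123.3 to 218 CPM in CTRL. None of these cell type markers was at 0 in all libraries, and the part of other cell types in the P450 results was not tested. Of 26 tested P450 genes of other families, 3 were called higher and 2 lower by edgeR, beside 3.34% and 2.69% of all genes. Among the 45 tested members, 6 were called higher and 3 lower. Called genes were thus not particular to families 1 to 3. Among the 6, Cyp3a41a, Cyp3a44, Cyp3a57 and Cyp2c69 passed the count filter only through OPA1_LKO. Whether the calls exceed the share of all genes was therefore not tested.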

How the data were processed

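RNA from whole liver was sequenced in 8 libraries, 3 OPA1_LKO and 5 CTRL, from stranded poly(A)-selected preparations, per the labels' protocols. Tools listed in the submitters' processing notes are STAR, RSEM, MultiQC and StringTie, with no role or version, and the genome build is mm10. The annotation release is not given in the sources used here. Expected counts were deposited by the authors per gene, as estimated by RSEM and not normalised. The authors also deposited TPM per gene and transcript, which are corrected for length and scaled to one sum in each library. RSEM splits reads that match several genes by estimation, so levels of near-identical members are uncertain. The deposited transcript counts were not used, and 0 columns of other samples were present.

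Gene expected counts were rounded, filtered by filterByExpr at its default minimums (10 counts at the typical library size, 15 in total) and scaled by TMM. OPA1_LKO was set against CTRL with the quasi-likelihood functions of edgeR (version 4.0.16, under R 4.3.3), in a model that held the group alone. P-values were adjusted by Benjamini-Hochberg over 14036 genes, and an SE is the log2 fold change divided by the root of its F statistic. CPM use the TMM-scaled library sizes. DESeq2 1.42.0 and limma 3.58.1 served as alternatives, beside other scaling, no filter, unrounded counts, a replicate block and leaving out each library. The procedure was tested on simulated data. No library was a copy of another.

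Positions, promoters and motif shares come from RefSeq tables of GRCm38.p6, the build named mm10, where 50 members matched by symbol and Cyp2c44 by an older name. Shared words of 50 bases were counted in GENCODE M21 coding transcripts of 50 members. Any member could be named. Values per library were given for called members, for the 2 most abundant and the lowest-p member of each subfamily, for sex-biased P450 genes and for pairs of opposite sign, and from the other gene lists the called genes and those with the lowest p were named. Results for 2 genes of those lists are not reported here. Nqo1, Alb, Alas1 and the duct genes named for CTRL replicate 3 were chosen after their values were seen. The members and gene lists, written from general knowledge, were chosen with earlier results of these data known. The limits of the counting intervals cover counting error only.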

Additional observations from a re-analysis of the deposited data

Results flagged for a closer look

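In 6 of the 51 members, 1 CTRL library lay far from the other 4 in TPM, by Dixon's test at the 95% level (critical value 0.71 for 5 samples). Chance alone flags about 1 in 20 groups. CTRL replicate 1 was the high library in 3 of them. Cyp2a12 was at 527.96 TPM there, against 262.65 to 332.97 TPM in the other controls. Cyp2a4 was at 38.93 TPM, against 0.72 to 3.45 TPM, and Cyp2d12 was at 4.02 TPM, against 1.64 to 2.26 TPM. CTRL replicate 3 was the high library in the other 3. Cyp2b10 was at 2.7 TPM there, against 0.03 to 0.36 TPM in the other controls. Cyp2c65 was at 4.85 TPM, against at most 0.13 TPM, and Cyp2c66 was at 0.57 TPM, against 0 TPM. None of the 6 members was called with all libraries. Without CTRL replicate 1, Cyp2a4 and Cyp2d12 were called higher in OPA1_LKO, and without CTRL replicate 3, Cyp2b10 was.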

How the results depend on the processing

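The count of members higher in OPA1_LKO was 6 with upper-quartile factors, DESeq2, no filter and unrounded counts, 5 with limma on log2(TPM + 1), 4 with the replicate block and 5 to 8 without 1 library, against 6 with all libraries. Cyp2c69, Cyp3a41a, Cyp3a44 and Cyp3a57 were called in each of these fits. These genes passed the count filter only through OPA1_LKO, so their calls in refits of the same libraries are no separate support. The count of members lower was 7 with DESeq2, 1 with limma on log2(TPM + 1) and 5 with the replicate block, and 0 to 7 without 1 library, against 3. The cause was not tested. DESeq2 added Cyp2c37, Cyp2d40, Cyp2r1 and Cyp3a59, as did leaving out CTRL replicate 1, and limma kept Cyp2c38. Samples with the same replicate number deviated together with correlations of 0.0720, 0.0537 and 0.175. Samples with unlike numbers were not compared in this way, so these values cannot decide whether the numbers pair the samples. With the block, 367 of 14036 genes were called in all, 193 higher and 174 lower. Without the filter, 385 of 23042 genes were higher and 238 lower. Without OPA1_LKO replicate 1, 144 of 14305 genes were higher and 54 lower, the fewest when 1 library was left out. Without CTRL replicate 1, 924 of 13902 were higher and 777 lower, the most. The member counts above thus cannot be set against 1 common share.

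Calls lost under other settings were those of Cyp1b1 (limma adjusted p = 0.0565, block 0.194), Cyp2c39 (no filter 0.0541, limma 0.0599, block 0.115), Cyp2c40 (block 0.0512) and Cyp2f2 (limma 0.0554). Cyp2b10 had no adjusted p in DESeq2. The log2 fold change took the other sign in at least 1 fit in 11 of the 45 tested members, 0 of them called by edgeR or by any alternative with that sign. With upper-quartile factors Cyp2a12 was at 0.016, Cyp2a22 at 0.0081 and Cyp2d10 at 0.025. With limma Cyp2a12 was at 0.12, Cyp2a22 at 0.19, Cyp2c54 at 0.043, Cyp2c55 at 0.018, Cyp2d10 at 0.11, Cyp2d22 at 0.061 and Cyp2s1 at 0.036. With the block Cyp1a2 was at 0.034, Cyp2b13 at 0.41, Cyp2c54 at 0.16, Cyp2d10 at 0.069, Cyp2d22 at 0.044 and Cyp2g1 at -0.19. Without 1 library the range was -0.59 to 0.048 for Cyp1a2, -0.11 to 0.024 for Cyp2a12, -0.21 to 0.24 for Cyp2a22, -0.89 to 0.078 for Cyp2b13, -0.43 to 0.093 for Cyp2c54, -0.69 to 0.17 for Cyp2c55, -0.20 to 0.060 for Cyp2d10, -0.17 to 0.29 for Cyp2g1, -0.23 to 0.37 for Cyp2j9 and -0.60 to 0.64 for Cyp2s1.

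Over all genes, calls split 469 higher to 377 lower in the edgeR fit, 547 to 270 with upper-quartile factors, 504 to 107 with limma and 841 to 851 with DESeq2. The median log2 fold change of all genes was 0.09 on the log2(TPM + 1) scale, against -0.03 in the edgeR fit. That of the tested members ran from -0.50 without OPA1_LKO replicate 2 to -0.02 on the log2(TPM + 1) scale, against -0.25 in the edgeR fit. The called members with under 30 counts in CTRL have fold changes that depend on few reads.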
